A study of Mus musculus with 6 samples.

Results

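The genes that return calcium to the sarcoplasmic reticulum after a contraction, and those that buffer it, were followed in mouse soleus, a calf muscle that holds slow and fast fibres side by side. There were 8 of them, picked by gene name from the 43074 names that each library lists: the SERCA calcium pumps Atp2a1, Atp2a2 and Atp2a3, the pump inhibitors Pln and Sln, the calsequestrins Casq1 and Casq2, and the cytosolic buffer Pvalb. All 8 were listed and all 8 passed the filter on low values. The libraries were 3 labelled StarD7 mKO and 3 labelled WT, all of soleus RNA after poly(A) selection. StarD7, whose gene is targeted in the mKO mice, transfers phosphatidylcholine to mitochondria. Age, sex, strain, the deleted exons, and the promoter and cell type that drive the deletion are not given in the sources used here. The series text gives 3 mice a group but no label names the mouse behind a library, so the p-values here measure only the spread between these samples, which may be technical. Between 19774 and 20207 genes were above 0 in a library, and mitochondrially encoded genes took 46.8% to 48.9% of TPM in mKO and 42.1% to 45.1% in WT.

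SERCA pumps use ATP to move calcium from the cytosol back into the sarcoplasmic reticulum, which lets the fibre relax. Fast fibres use mainly SERCA1, the product of Atp2a1, and slow fibres and heart use SERCA2, the product of Atp2a2. SERCA3, the product of Atp2a3, is best known from blood, endothelial and epithelial cells. Phospholamban (Pln) and sarcolipin (Sln) are small membrane proteins that bind the pumps and restrain them. Calsequestrin holds calcium inside the reticulum, with Casq1 as the form of both fibre kinds and Casq2 as the form of heart and slow fibres. Parvalbumin (Pvalb) binds calcium in the cytosol of the fastest fibres and speeds relaxation.

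Levels are given in TPM, a share of all transcripts that is corrected for gene length and sums to the same total in each library. Each log2 fold change is the mKO mean minus the WT mean of log2(TPM + 1), with a standard error (SE) and 95% interval from limma, and a gene is called at an adjusted p below 0.05 over all 12301 genes tested. Of the 8 genes, 2 were called, where 0.52% of all tested genes were called in either direction. Pln was the call that rose (background of rises 0.0976%) and Pvalb the call that fell (background of falls 0.423%). The 3 mKO and 3 WT libraries did not overlap for 4 of the 8, namely Pln, Pvalb, Atp2a1 and Casq1, where 16.0% of all tested genes had groups that did not overlap. The 8 genes were chosen with earlier results of these data known, so these shares are a description.

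The stretches before the transcription starts of Pln and Pvalb are shown because these are the 2 calls, in opposite directions. Those of Casq1 and Casq2 are shown as a pair of related genes whose means differed from WT in opposite directions. Each is the 250 bases before the start, 5′ to 3′ on the strand of the gene, from RefSeq on GRCm38.p6, an older build than the GRCm39 of the deposited values. Capitals mark matches, on either strand, to the E-box (CANNTG), to TATAAA or to the MEF2 motif (searched by name). Pln lies on the plus strand at chr10:53337436-53337685. Pvalb has another listed start, and the one shown lies on the minus strand at chr15:78206401-78206650. Casq1 lies on the minus strand at chr1:172219896-172220145 and Casq2 on the plus strand at chr3:102086165-102086414.
Pln: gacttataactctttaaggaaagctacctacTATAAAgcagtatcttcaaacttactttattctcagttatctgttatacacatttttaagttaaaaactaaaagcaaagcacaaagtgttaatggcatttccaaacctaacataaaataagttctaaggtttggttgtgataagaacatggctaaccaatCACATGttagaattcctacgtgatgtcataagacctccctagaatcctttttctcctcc
Pvalb: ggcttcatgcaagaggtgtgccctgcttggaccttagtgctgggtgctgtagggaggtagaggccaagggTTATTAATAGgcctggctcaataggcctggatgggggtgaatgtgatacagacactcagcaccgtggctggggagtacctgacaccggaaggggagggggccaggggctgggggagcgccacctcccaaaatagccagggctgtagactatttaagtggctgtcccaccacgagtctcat
Casq1: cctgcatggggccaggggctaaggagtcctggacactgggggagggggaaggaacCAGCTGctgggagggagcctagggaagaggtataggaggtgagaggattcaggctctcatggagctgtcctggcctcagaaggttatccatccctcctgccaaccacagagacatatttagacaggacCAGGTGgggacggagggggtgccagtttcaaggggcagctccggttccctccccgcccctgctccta
Casq2: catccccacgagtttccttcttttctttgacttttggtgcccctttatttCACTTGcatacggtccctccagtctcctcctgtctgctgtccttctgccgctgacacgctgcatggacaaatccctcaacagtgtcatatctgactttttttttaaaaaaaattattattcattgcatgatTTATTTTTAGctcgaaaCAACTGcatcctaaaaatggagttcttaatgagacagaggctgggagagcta

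The stretch of Pln held 1 E-box, 54 to 59 bases before the start, and 1 TATAAA match at 214 to 219 bases. The shown stretch of Pvalb held 1 MEF2 match, 171 to 180 bases before the start, and no E-box. That of its other listed start, not shown, held no MEF2 match and 1 E-box, at 106 to 111 bases, and was 71.6% G or C. The stretch of Casq1 held 2 E-boxes, while that of Casq2 held 2 E-boxes and 1 MEF2 match, 60 to 69 bases before the start. No CATTCC (the MCAT motif) and no CArG box, also searched by name, lay in the 4 stretches shown. Of the 32851 starts in the same table, 66.2% held an E-box, 12.4% TATAAA, 2.92% a MEF2 match, 12.6% CATTCC and 1.47% a CArG box within 250 bases. E-boxes are thus common in any such stretch. The stretch of Pln was 32.8% G or C, against 58.4% for Pvalb, 61.6% for Casq1 and 41.6% for Casq2. Of the 8 genes, 6 were found in the table of starts.

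Atp2a1, the fast pump, was the most abundant of the 8 genes in both groups. It stood at 4864, 4253 and 5803 TPM in mKO replicates 1, 2 and 3, and at 6581, 7509 and 7835 TPM in WT replicates 1, 2 and 3. Every mKO library lay below every WT library. The mean was 4973 ± 781 TPM in mKO and 7308 ± 651 TPM in WT (SD, n = 3 each), so mKO stood at 68.1% of WT. The log2 fold change of −0.56 (SE 0.12, 95% interval −0.83 to −0.29) did not pass the threshold by limma (adjusted p = 0.116). Leaving out mKO replicate 3 made it a call, at −0.68 (limma adjusted p = 0.0311). Leaving out any other single library did not (limma adjusted p = 0.132 to 0.428). Nor did leaving out mitochondrially encoded genes (−0.44, limma adjusted p = 0.176).

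Atp2a2, the slow and cardiac pump, stood at 2885, 2849 and 2239 TPM in the mKO libraries and at 2339, 2301 and 2083 TPM in the WT libraries. The groups overlapped, since mKO replicate 3 lay among the WT values. The mean was 2658 ± 363 TPM in mKO and 2241 ± 138 TPM in WT (SD, n = 3 each). Its log2 fold change was 0.24 (SE 0.10, 95% interval 0.00 to 0.48, limma adjusted p = 0.467). Without mKO replicate 3 it was 0.36, still short of the threshold (limma adjusted p = 0.0925).

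Atp2a3, the pump known mainly outside muscle fibres, was near the bottom of the range at 8.24, 8.07 and 8.97 TPM in mKO and 7.89, 8.23 and 9.07 TPM in WT. These values interleaved. The log2 fold change was 0.01 (SE 0.08), and its 95% interval, −0.17 to 0.18, leaves room for a fold between 0.887 and 1.14. Its sign turned in 3 of 15 other settings, all of which left out a library (−0.04 to 0.06 over those that did). Reads recovered from the TPM values came to between 891 and 948 a library in mKO and between 910 and 1044 in WT.

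The 3 pump genes together made up 7757, 7110 and 8051 TPM in the mKO libraries and 8927, 9818 and 9927 TPM in the WT libraries. The mKO sums were all below the WT sums, with a mean of 7639 ± 481 TPM in mKO against 9558 ± 549 TPM in WT (SD, n = 3 each), a difference of −1918 TPM. Atp2a1 made up 62.7%, 59.8% and 72.1% of this sum in mKO and 73.7%, 76.5% and 78.9% in WT. The share averaged 64.9% ± 6.41 in mKO and 76.4% ± 2.61 in WT (SD, n = 3 each), a difference of −11.5 points. Both differences had a two-sided exact permutation p of 0.1, the smallest that 3 libraries against 3 can give, and an adjusted p of 0.12 over the 6 sums and ratios compared. With 3 libraries against 3, this test cannot pass 0.05. In bulk muscle, fewer fibres of a type and less RNA per fibre cannot be told apart.

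**Figure D1:**
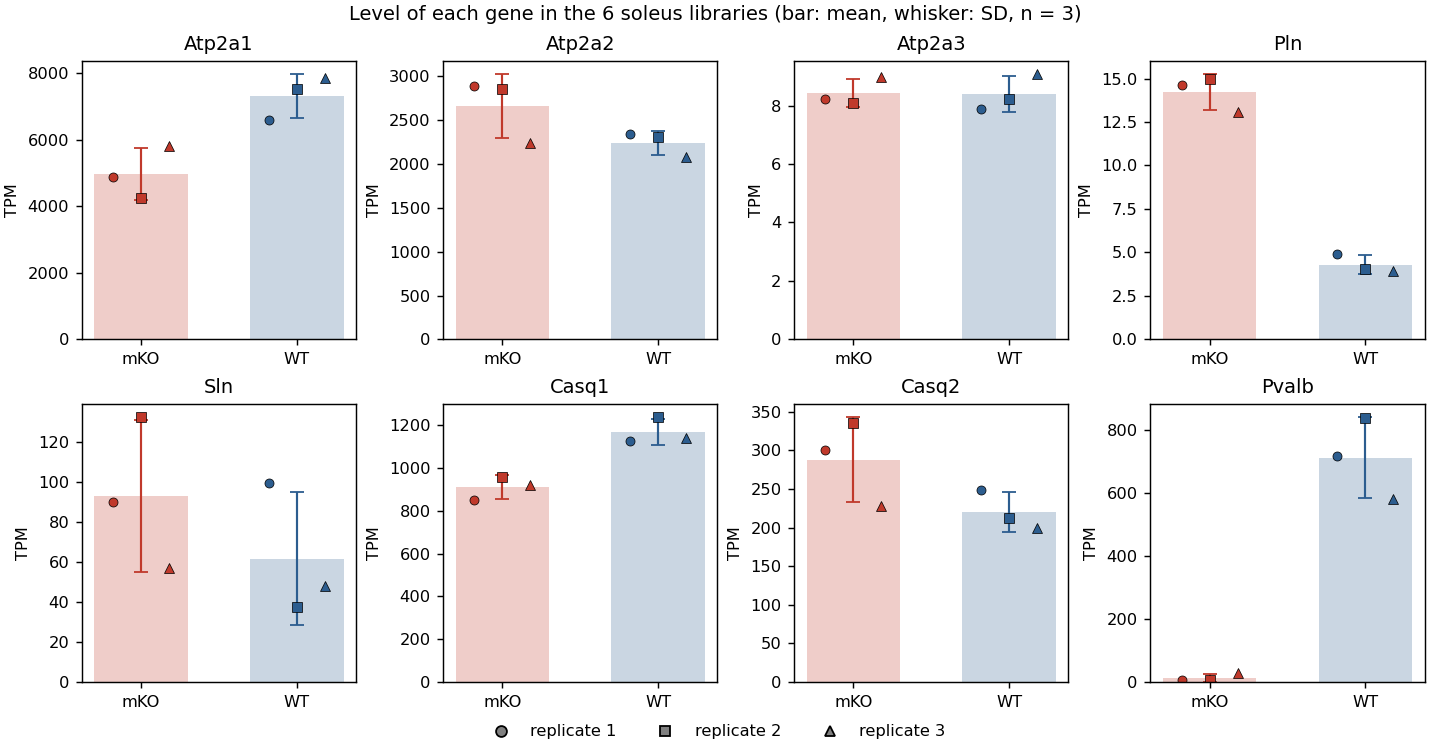
TPM of the 8 genes in each soleus library, mKO left and WT right, with a vertical axis from 0 in each panel. Bars are means, whiskers SDs (n = 3) and symbols the replicates: Pln is 3.31 times WT in mKO, Pvalb is 1.96% of WT, and the Sln libraries of both groups overlap.

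Pln encodes phospholamban, which inhibits SERCA2 until it is phosphorylated by protein kinase A or CaM kinase II. It rose to 14.6, 15.0 and 13.1 TPM in the mKO libraries, against 4.91, 4.05 and 3.94 TPM in the WT libraries. The lowest mKO library stood well above the highest WT library, and the libraries within each group lay close together. The mean was 14.2 ± 1.02 TPM in mKO and 4.30 ± 0.528 TPM in WT (SD, n = 3 each), a ratio of 3.31 in TPM. The log2 fold change of 1.52 (SE 0.09, 95% interval 1.31 to 1.74, limma adjusted p = 0.000742) ranked 1 from the top among the 12301 tested genes. Recovered reads were 827, 899 and 721 in mKO against 313, 234 and 237 in WT.

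Pln is overlapped on the opposite strand by exons of Cep85l, which share 141 of its 2759 exon bases in GENCODE M21, and by the predicted gene Gm47644, which shares 1644. The library kit was directional, but the sources used here do not say whether counting used strand, so reads of these genes may be shared. Cep85l was listed at 15.1, 14.4 and 12.8 TPM in mKO and 15.2, 15.2 and 16.5 TPM in WT, so it was not higher in mKO in any library. Gm47644 was listed at 0.325, 0.729 and 0.443 TPM in mKO and 0.319, 0.388 and 0.694 TPM in WT.

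Sln, the inhibitor of SERCA1 and SERCA2 that also uncouples ATP use from calcium transport, varied more between WT libraries than any other of the 8, and in mKO more than all but Pvalb. It stood at 90.0, 133 and 56.9 TPM in mKO and at 99.5, 37.6 and 47.8 TPM in WT. The groups overlapped, since WT replicate 1 lay above 2 of the 3 mKO libraries. The highest library was 2.33 times the lowest within mKO and 2.64 times within WT. The mean was 93.1 ± 37.9 TPM in mKO and 61.7 ± 33.2 TPM in WT (SD, n = 3 each). In log2 fold change it was at 0.63 (SE 0.39, limma adjusted p = 0.636). It was 0.34 without mKO replicate 2 or without WT replicate 2 and 1.03 without WT replicate 1, none of them called. Its 95% interval, −0.27 to 1.53, spans folds of 0.831 to 2.88, so these libraries bound the change of Sln only loosely.

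Sln remained the more abundant inhibitor transcript in every library. It made up 86.0%, 89.9% and 81.3% of Sln and Pln together in mKO, and 95.3%, 90.3% and 92.4% in WT. The mean share was 85.7% ± 4.27 in mKO and 92.7% ± 2.52 in WT (SD, n = 3 each, two-sided exact permutation p = 0.1, adjusted p = 0.12). The groups did not overlap, but mKO replicate 2 and WT replicate 2 were less than a point apart.

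Set against its pump, Pln came to 5.07, 5.25 and 5.83 TPM per 1000 TPM of Atp2a2 in mKO and to 2.10, 1.76 and 1.89 in WT. The ratio averaged 5.39 ± 0.397 in mKO and 1.92 ± 0.170 in WT (SD, n = 3 each, two-sided exact permutation p = 0.1, adjusted p = 0.12), 2.81 times WT. Both groups were tight, and here mKO replicate 3 was the highest library, not the one nearest to WT. Sln came to 18.5, 31.2 and 9.80 TPM per 1000 TPM of Atp2a1 in mKO and to 15.1, 5.01 and 6.10 in WT. These groups overlapped (19.8 ± 10.7 in mKO, 8.75 ± 5.55 in WT, SD, n = 3 each, two-sided exact permutation p = 0.2). Their difference of 11.1 was 5.41 without mKO replicate 2.

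**Figure D2:**
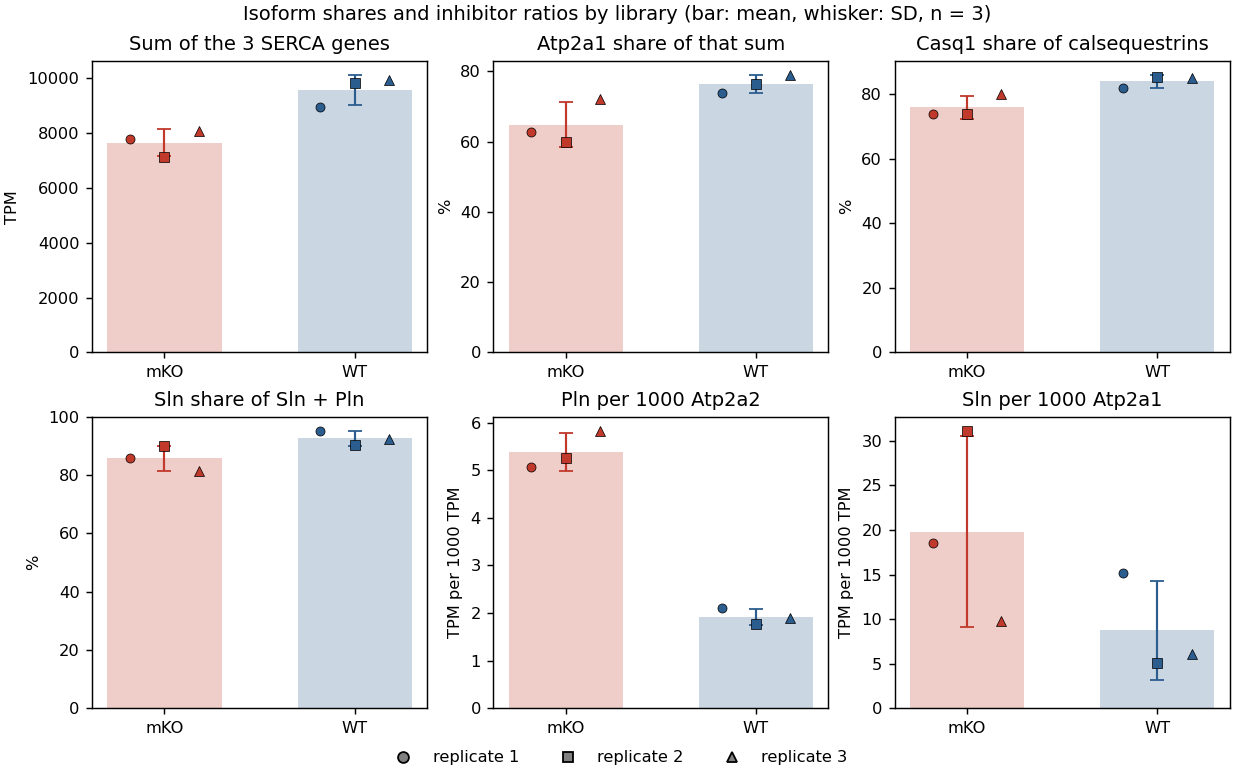
The summed TPM of the 3 SERCA genes, the isoform shares in percent and the inhibitor to pump ratios in TPM per 1000 TPM, by library, mKO left and WT right, with bars for means and whiskers for SDs (n = 3). Pln per 1000 Atp2a2 lies between 5.07 and 5.83 in mKO, above the WT values of 1.76 to 2.10.

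Casq1, the main calsequestrin of skeletal muscle, stood at 850, 960 and 921 TPM in mKO and at 1126, 1238 and 1140 TPM in WT. All mKO libraries lay below all WT libraries. The mean was 910 ± 55.8 TPM in mKO and 1168 ± 61.0 TPM in WT (SD, n = 3 each), so mKO was at 77.9% of WT. The log2 fold change of −0.36 (SE 0.06, 95% interval −0.51 to −0.21) missed the threshold (limma adjusted p = 0.0623). It passed with library weights (limma adjusted p = 0.0465) and by limma-voom on recovered reads (adjusted p = 0.0351), both chosen after seeing the data. With any 1 library left out it stayed short of the threshold (limma adjusted p = 0.0964 to 0.287). With mitochondrially encoded genes left out it was −0.24 (limma adjusted p = 0.132).

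Casq2, the calsequestrin of heart and slow fibres, stood at 301, 336 and 228 TPM in mKO and at 249, 213 and 199 TPM in WT. The groups overlapped through mKO replicate 3, which lay below WT replicate 1. The mean was 288 ± 55.0 TPM in mKO and 220 ± 25.9 TPM in WT (SD, n = 3 each), with a log2 fold change of 0.37 (SE 0.14, 95% interval 0.04 to 0.70, limma adjusted p = 0.397). Without mKO replicate 3 it was 0.53 (limma adjusted p = 0.0884). Casq1 made up 73.8%, 74.1% and 80.2% of the 2 calsequestrins in mKO and 81.9%, 85.3% and 85.1% in WT, without overlap. The mean share was 76.0% ± 3.58 in mKO and 84.1% ± 1.95 in WT (SD, n = 3 each, two-sided exact permutation p = 0.1, adjusted p = 0.12).

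Pvalb, the soluble buffer of fast fibres, fell to 5.53, 8.21 and 28.3 TPM in the mKO libraries, against 718, 840 and 582 TPM in the WT libraries. The highest mKO library was far below the lowest WT library. The mean was 14.0 ± 12.4 TPM in mKO and 713 ± 129 TPM in WT (SD, n = 3 each), so mKO stood at 1.96% of WT. The log2 fold change of −5.87 (SE 0.48, 95% interval −6.98 to −4.76, limma adjusted p = 0.00466) ranked 2 from the bottom among tested genes. Leaving out WT replicate 2 ended the call (−5.74, limma adjusted p = 0.0515), as did testing genes at any level (limma adjusted p = 0.0742).

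The Pvalb RNA in mKO rested on fewer reads than in WT. Recovered reads were 118, 186 and 589 in mKO and 17285, 18304 and 13218 in WT. Within mKO, replicate 3 held 5.11 times the TPM of replicate 1, while the highest WT library was 1.44 times the lowest. In WT, Pvalb was the fourth most abundant of the 8 genes. In mKO its mean was close to that of Pln, and the libraries of Pvalb overlapped with those of Pln and of Atp2a3, so the order of these 3 is not set there. The order Atp2a1, Atp2a2, Casq1, Casq2 and Sln held without overlap in mKO, and in WT the order of all 8 did, from Atp2a1 down to Pln.

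None of the 9 fast fibre markers had a log2 fold change above 0, 8 of the 9 had groups that did not overlap (16.0% of all tested genes), and 2, Actn3 and Mybpc2, were called (0.52% of all tested genes). Their summed TPM was 19881 to 26360 in mKO and 32205 to 38380 in WT. Of the 7 slow fibre markers, 6 lay above 0 with a median of 0.24 and none was called, and their sum overlapped between groups (14191 to 20510 TPM in mKO, 13444 to 17313 TPM in WT). Slow myosin, Myh7, was at 0.24 (limma adjusted p = 0.661), beside the 0.24 of Atp2a2 and the 0.37 of Casq2. The markers were chosen with earlier results of these data known, so their shares are a description. The part of fibre composition in the values of the 8 genes was not tested.

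Myh4, the myosin heavy chain of type IIb fibres, varied between the WT libraries in a way that Pvalb did not. It was listed at 10.01, 8.62 and 8.32 TPM in mKO and at 53.9, 530 and 635 TPM in WT, an 11.8-fold range within WT. WT replicate 1, lowest for Myh4, was in the middle for Pvalb at 718 TPM. Myh1, the type IIx chain, was at 113, 82.7 and 635 TPM in mKO and at 3409, 3109 and 2505 TPM in WT, with mKO replicate 3 highest of the mKO libraries as for Pvalb.

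Among markers of other cells, none was called. Pln and Atp2a2 are also used by heart and smooth muscle. Of 5 heart markers, 4 stayed below the filter, with Nppa listed at 0 in all libraries, and Myh6 was not called. None of 5 smooth muscle markers was called (summed TPM 2268 to 2397 in mKO and 2407 to 2575 in WT, without overlap, most of it Des, which muscle fibres also use). None of 4 endothelial markers was called (179 to 180 TPM in mKO and 184 to 190 TPM in WT, again without overlap). Of 5 leukocyte and platelet markers, 1 was tested and not called, with Cd3e listed at 0 in every library (summed TPM 11.7 to 16.2 in mKO and 10.5 to 14.5 in WT). None of the tested macrophage, fibroblast, adipocyte, Schwann cell, satellite cell or red cell markers was called. The targeted gene Stard7 stood at 21.8, 21.3 and 34.6 TPM in mKO and 87.5, 95.4 and 94.99 TPM in WT.

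**Figure D3:**
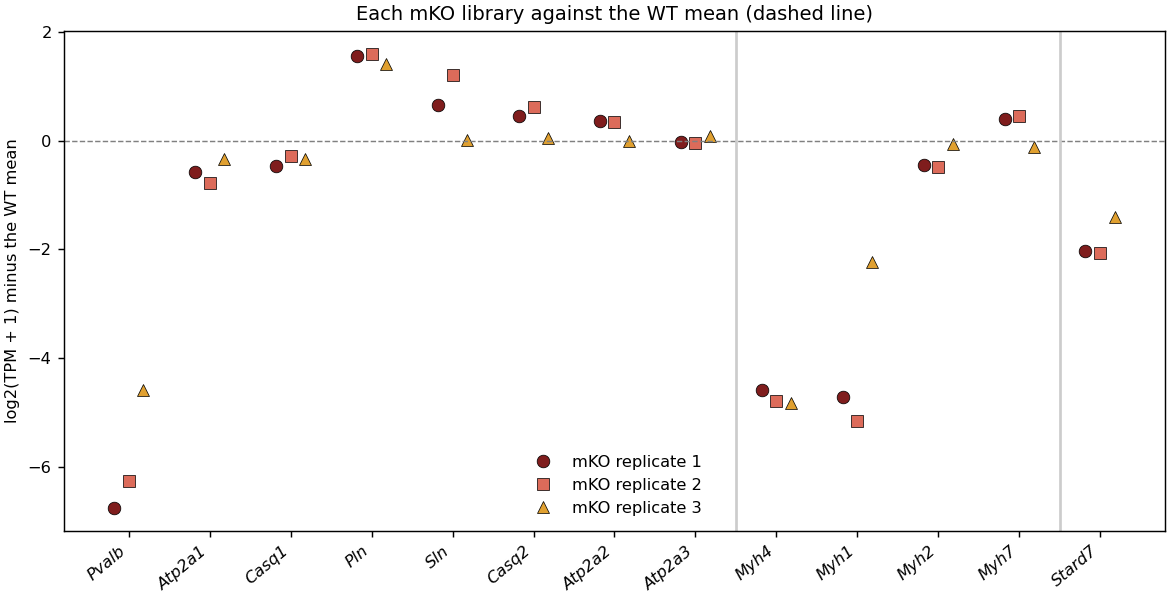
The log2(TPM + 1) of each mKO library minus the WT mean (dashed line), for the 8 genes, 4 myosin heavy chains and Stard7. Replicate 3 is the closest of the mKO libraries to the WT mean for 6 of the 8 genes and for Stard7. For Myh4, replicate 1 is the closest. For Pln, replicate 3 lies at 1.41, near the 1.57 and 1.60 of the other libraries.

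The mKO libraries did not stand at equal distances from WT. On the log2(TPM + 1) scale, replicate 3 was the nearest of the mKO libraries to the WT mean for 6 of the 8 genes, all but Atp2a3 and Casq1. It stood at −4.59 from the WT mean for Pvalb, where replicates 1 and 2 stood at −6.76 and −6.26, and at −0.33 for Atp2a1, where they stood at −0.58 and −0.78. For Sln, Casq2 and Atp2a2 it lay 0.01, 0.05 and 0.00 from the WT mean. It also held the most Stard7 RNA of the mKO libraries, −1.40 from the WT mean, where replicates 1 and 2 stood at −2.04 and −2.07. For Myh4, replicate 1 was the nearest, while for Myh1, Myh2 and Myh7 it was replicate 3. The nearest library was not counted over all tested genes, so the 6 of 8 has no background beside it. Whether the position of replicate 3 goes with its remaining Stard7 was not tested.

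Other genes of calcium handling were followed in 5 lists of 54 genes, of which 48 were tested. None was called higher and 3 were called lower, 6.25% against the 0.52% of all tested genes. The median log2 fold change over the 48 was −0.06, against −0.01 over all tested genes, and 15 of 48 (31.2%) had groups that did not overlap, against 16.0% of all. The calls were Ryr1, Tnnc2 and Camk2a, and each was lost in several settings. The lists were chosen with earlier results of these data known, so their shares are a description.

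None of the 3 tested small membrane peptides related to Pln and Sln was called. Mrln, myoregulin, which inhibits the pump in skeletal muscle, averaged 14.9 ± 0.246 TPM in mKO and 18.1 ± 4.29 TPM in WT (log2 fold change −0.23, 95% interval −0.59 to 0.12, limma adjusted p = 0.65). Strit1, the peptide DWORF that counters these inhibitors, averaged 60.4 ± 21.6 TPM in mKO and 69.9 ± 11.4 TPM in WT (−0.25, 95% interval −0.78 to 0.28, limma adjusted p = 0.768). Arln, another-regulin, was at 0.21 (limma adjusted p = 0.559), and Erln, endoregulin, was below the filter with no library above 0.391 TPM. In WT, Pln was lower in TPM than Mrln and Arln. In mKO its libraries, 13.1 to 15.0 TPM, reached into the range of Mrln, 14.7 to 15.2 TPM.

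Among 11 partners of the sarcoplasmic reticulum lumen and membrane, 10 lay below 0 in log2 fold change. Their median was −0.14, and 6 of the 11 had groups that did not overlap, against 16.0% of all tested genes. Ryr1, the calcium release channel, fell to 351, 343 and 379 TPM in mKO, against 440, 481 and 472 TPM in WT (log2 fold change −0.38, SE 0.06, limma adjusted p = 0.0478). Of 15 other settings 4 kept that call, and it was lost when a single WT library, or mKO replicate 1 or 2, was left out (limma adjusted p = 0.0795 to 0.26). Hrc, the histidine-rich calcium-binding protein of the lumen, was at −0.15, and Srl, sarcalumenin, was at −0.10, both short of the threshold. Calr, calreticulin, the lumenal buffer of non-muscle reticulum, was at 0.00 (95% interval −0.14 to 0.15). With mitochondrially encoded genes left out the median of this list was −0.03, while that of all genes moved to 0.09.

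Of 9 cytosolic calcium-binding genes, 6 were tested. Tnnc2, fast troponin C, fell to 6749, 6842 and 7856 TPM in mKO, against 9520, 10675 and 9895 TPM in WT (log2 fold change −0.49, SE 0.08, limma adjusted p = 0.0494). Of 15 other settings 3 kept that call, and it was lost when a single WT library, or mKO replicate 1 or 2, was left out. Tnnc1, troponin C of slow fibres, was at 0.30 (limma adjusted p = 0.627). S100a1, which binds calcium and acts on the release channel and the pump, was at 0.26 with groups that did not overlap (367 ± 31.3 TPM in mKO and 306 ± 18.0 TPM in WT, SD, n = 3 each, limma adjusted p = 0.252). Of the other soluble buffers, Ocm and Calb2 were listed at 0 in every library, and no library of Calb1 exceeded 0.265 TPM.

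Among 14 genes of phospholamban phosphorylation and calcium signalling, Camk2a was the call. It encodes the alpha chain of CaM kinase II, and in skeletal muscle the same gene also gives rise to the anchoring protein alphaKAP, which values per gene do not separate. It fell to 23.5, 22.5 and 22.6 TPM in mKO, against 32.8, 33.5 and 31.0 TPM in WT (log2 fold change −0.49, SE 0.06, limma adjusted p = 0.0188). The groups were tight and did not overlap. Of 15 other settings 8 kept it, and it was lost when a single WT library, or mKO replicate 1 or 2, was left out (limma adjusted p = 0.0551 to 0.161). The other CaM kinase II chains Camk2b, Camk2d and Camk2g were at −0.19, −0.05 and −0.25, none called. Prkaca, the catalytic subunit of protein kinase A, was at 0.03 (95% interval −0.12 to 0.19), and Ppp1cb, a catalytic subunit of protein phosphatase 1, was at 0.04. Rcan1, a target and inhibitor of calcineurin, was at 0.03 (273 ± 42.5 TPM in mKO and 266 ± 32.7 TPM in WT, SD, n = 3 each).

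Calcium removal by other routes held no call among 14 tested genes of 16, with a median of −0.03. The most abundant were Smdt1 and Micu2, a subunit and a gatekeeper of the mitochondrial calcium uniporter, at −0.04 (95% interval −0.19 to 0.10) and 0.05 (95% interval −0.10 to 0.20). The uniporter gene Mcu was at −0.05 (limma adjusted p = 0.85). Atp2b1, a plasma membrane calcium pump, was at 0.03, and Slc8a3, a sodium-calcium exchanger, was at 0.20 (limma adjusted p = 0.567). The medians of this list and of the cytosolic and phosphorylation lists, −0.03, −0.02 and −0.06, were 0.09, 0.10 and 0.05 with mitochondrially encoded genes left out.

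**Figure D4:**
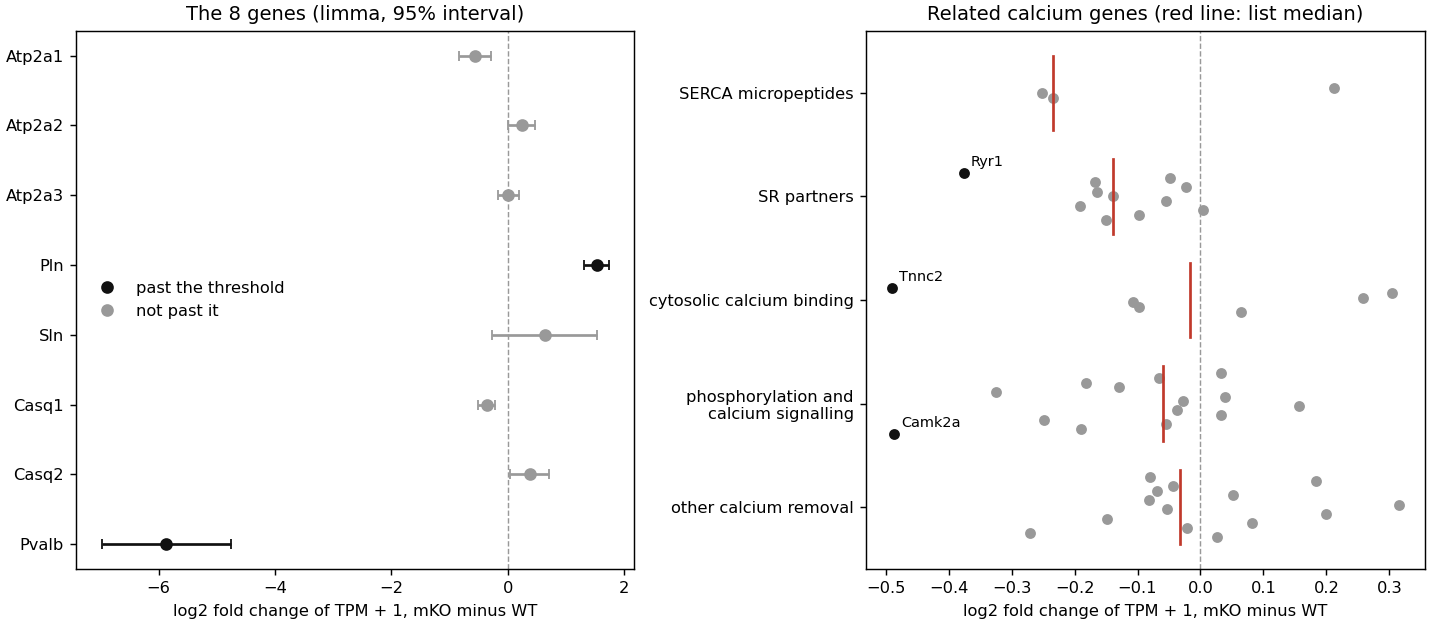
Left, log2 fold changes of TPM + 1 (mKO minus WT) of the 8 genes with 95% intervals from limma; right, those of the 48 tested genes of 5 related lists, with the list median as a red line. Black points passed the threshold: Pln at 1.52 and Pvalb at −5.87 on the left, and Ryr1, Tnnc2 and Camk2a, between −0.49 and −0.38, on the right.

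Genes with the most similar profile were found for Pln and Pvalb as the smallest root mean square distance between log2(TPM + 1) profiles over the 6 libraries, each centred on its WT mean. Nearest to Pln were Cyfip2 at a distance of 0.24, Dusp29 at 0.39 and Prune2 at 0.45. Cyfip2 stood at 29.9 ± 5.20 TPM in mKO and 12.03 ± 1.92 TPM in WT, and Prune2 at 17.2 ± 3.76 TPM in mKO and 8.25 ± 1.15 TPM in WT (SD, n = 3 each). Dusp29 averaged 61.3 ± 19.4 TPM in mKO and 27.0 ± 8.91 TPM in WT and was not called (limma adjusted p = 0.164). Nearest to Pvalb were Mybpc2 at 0.74, Myh1 at 1.36 and Actn3 at 1.46, all of the fast fibre list. Myh1 and Mybpc2 shared with Pvalb that mKO replicate 3 was the highest mKO library, whereas Actn3 was lowest there. Sln, with overlapping groups, and the genes with smaller changes were not searched.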

How the data were processed

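RNA was measured in 6 mouse soleus libraries (3 mKO, 3 WT), grouped by their labels. Per the labels' protocols, RNA was purified with a Maxwell RSC kit and made into directional poly(A) libraries. The authors deposited TPM per gene, on GRCm39 per the submitters' processing notes; aligner, counter and use of strand are not given in the sources used here.

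Limma-trend (limma 3.58.1, R 4.3.3) was run on log2(TPM + 1) for 12301 genes (3 or more libraries reaching 1 TPM), with Benjamini-Hochberg adjustment over all of them and a threshold of 0.05. This scale understates changes of low genes. Sums and ratios were compared by exact permutation tests (scipy 1.17.1). The limma test was checked on simulated data with the same spread set for every gene. It called 20 of 11370 genes without a change. All 91 genes with an absolute log2 change of 1 and all 93 with one of 2 were called. Spread that differs between genes was not simulated, so the check does not cover genes as variable as Sln or Pvalb.

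Reads were recovered as TPM times exon length (GENCODE M21) over a scale per library, whole within 0.05 reads in all 6 libraries for 93.1% of 22729 genes, which held 36340538 to 44088998 reads a library. They served for depth and for limma-voom with median-of-ratios scaling. Chi-square per degree of freedom between libraries of a group was 17.8 to 33.7, so none was a mere resequencing of another. This does not show whether the libraries of a group came from separate mice.

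The 8 genes, the lists and the markers were chosen with earlier results of these data known. Named genes were all 8, called list members, the 2 most abundant of lists without a call, the 4 adult myosin heavy chains, Stard7, and the 3 nearest profiles (mean of at least 2 TPM, no predicted genes) of members with a log2 change of at least 1 and no overlap. Other list members, overlapping genes and markers were named after their values were seen. A gene of these lists is not reported here by name. Arln and Erln are listed as 1810037I17Rik and Smim6. Alternatives were pseudocounts of 0.5 and 0.1, other filters, 2 scalings, a replicate block and each library left out; library weights and limma-voom were added after seeing the data.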

Additional observations from a re-analysis of the deposited data

How the results depend on the processing

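Pln kept its call and its direction in all 15 other settings (log2 fold change from 1.48 up to 1.74), and Pvalb kept its direction in all 15 and its call in 13. Pvalb was weaker with no filter on low values (−5.87, limma adjusted p = 0.0742) and lay between −6.51 and −5.43 when 1 library was left out. The unfiltered setting tests more genes and also refits the spread that limma shares over genes. Atp2a1, not called, lay between −0.68 and −0.46 when 1 library was left out and was called only without mKO replicate 3. Casq1 was called with library weights (−0.38) and by limma-voom (−0.35). With mitochondrially encoded genes left out, Casq1 was at −0.24, Atp2a1 at −0.44, Atp2a2 at 0.36 and Casq2 at 0.49, none called. The sign of Atp2a3 turned when mKO replicate 3, WT replicate 1 or WT replicate 2 was left out (from −0.035 to 0.057 over all 6). Sln, Atp2a2 and Casq2 kept their sign and stayed uncalled in all 15. The 6 sums and ratios kept their sign in all 8 settings run, but this is little of a check. Scaling a library leaves its shares and ratios as they are. Leaving out 1 library cannot turn a difference between groups that do not overlap. Only Sln per 1000 Atp2a1, whose groups overlapped, could have turned that way (differences of 5.41 to 16.1). Called genes numbered 64 (12 higher, 52 lower), 6 (2, 4) with no filter, 41 (21, 20) with mitochondrially encoded genes left out, and 66 by limma-voom (18, 48). They numbered 13, 26 and 94 without mKO replicates 1, 2 and 3, and 13, 4 and 12 without WT replicates 1, 2 and 3 (1 to 18 higher, 3 to 76 lower). Of the related lists, 3 genes were called, 0 with no filter or the replicate block, 1 with the filter on the mean, with mitochondrially encoded genes left out or with median-of-ratios scaling, and 0 to 3 with 1 library left out. Same-numbered libraries had deviations correlated at 0.09, 0.05 and 0.13, and each correlated best with its own number, a hint from the data and not the design. With the replicate block 21 genes were called (5 higher, 16 lower), Pln and Pvalb among them. The causes of these changes were not tested. Of the 8 genes, Pvalb had the fewest recovered reads in a library (118, in mKO).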
